A study of Mus musculus with 2 samples.

Results

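Transcript counts of 10 ETS family transcription factor genes were compared between bone marrow mesenchymal stem/progenitor cells (MSPC) of Ptpn11E76K/+ mice (1 library) and of Ptpn11+/+ mice (1 library). The genes were taken by name (Etv1, Etv4, Etv5, Etv6, Ets1, Ets2, Elk1, Elk3, Elk4 and Erf) out of 35275 Ensembl gene models in the deposited count table, and all 10 were found. Both genotypes were on the C57BL/6 strain and carried Nestin-Cre, a recombinase transgene under nestin control, so the recombinase is common to both libraries. The mutant mice carry 1 Ptpn11 allele that encodes an activated form of SHP2, the phosphatase that passes receptor signals on to RAS and ERK. Per the labels' protocols the cells were sorted from fresh marrow as positive for CD140 and Sca-1 and negative for CD45, Ter-119 and CD31. The labels do not state the animals' age or sex, or how many were pooled per library. The design text mentions 2 replicates, but the table holds 1 column per genotype. There is therefore no replicate check and no test between genotypes. Each interval covers counting error only and compares these libraries.

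ETS factors share a DNA-binding domain that reads a GGAA core, and several of them are direct endpoints of RAS-ERK signalling. The PEA3 group (Etv1, Etv4, Etv5) holds activators whose genes are switched on by FGF and ERK signalling and kept off by the repressor Capicua. Ets1 and Ets2 are activators that ERK phosphorylates, and they often act beside AP-1 on matrix protease genes. Elk1, Elk3 and Elk4 are the ternary complex factors, which bind serum response factor (SRF) at immediate early genes. Etv6 and Erf are repressors, and ERK moves Erf out of the nucleus.

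The Ptpn11E76K/+ library held 18010963 counts and the Ptpn11+/+ library 22328659. Ptpn11 itself had 5039 counts in the Ptpn11E76K/+ library and 5958 in the Ptpn11+/+ library, a scaled ratio of 1.13 (95% interval 1.08 to 1.17). Counts per gene do not separate the mutant allele from the normal one. Of the genes behind the sort, Pdgfra and Pdgfrb (CD140) had 1792 and 3721 counts in the Ptpn11E76K/+ library, against 2073 and 6075 in the Ptpn11+/+ library, with scaled ratios of 1.15 and 0.81. Ly6a (Sca-1) had 612 counts in the Ptpn11E76K/+ library and 2177 in the Ptpn11+/+ library and was called lower (ratio 0.37). Of 13 MSPC markers listed, 12 were measured. Nes (2.76) and Thy1 (2.57) were called higher, and Ly6a, Cxcl12 (0.29) and Prrx1 (0.36) lower, by the 2-fold rule given below. Among all measured genes, 6.98% were called higher and 8.29% lower. Thy1 was not called under totals that leave out abundant genes or with length and GC trends removed. With those trends removed, Col1a2 was called higher. The leptin receptor gene Lepr, which marks perivascular stroma, had 4 counts in the Ptpn11E76K/+ library and 7 in the Ptpn11+/+ library. Counts of 15 haematopoietic and myeloid markers summed to 957 (55.0 CPM of the scaled library) in the Ptpn11E76K/+ library and to 208 (8.99 CPM) in the Ptpn11+/+ library, where 9 of the 15 were at 0 counts.

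The libraries also differed by chromosome. Of 431 measured X-linked genes, 198 (45.9%) were called lower in the Ptpn11E76K/+ library and 3 higher, and their median log2 ratio was -1.15. Of 12629 measured autosomal genes, 6.99% were called lower and 7.18% higher. The median of the 501 measured genes of chromosome 15 was 0.56, and those of the other 18 autosomes lay between -0.11 and 0.17. Elk1 is X-linked, and none of the other 9 ETS genes described here lies on X or chromosome 15. These chromosome-wide differences and the genotype cannot be told apart in these 2 libraries.

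All 10 ETS genes had at least 20 counts over both libraries, the minimum for a gene to be called measured. The call required the whole 95% exact interval of the ratio to lie beyond 2-fold. By that rule 1 ETS gene, Etv4, was called higher and 1, Elk1, was called lower in the Ptpn11E76K/+ library, while 8 were not called. Of all 13142 measured genes, 6.98% were called higher and 8.29% lower, so 1 of 10 in either direction is near the background. Of these calls over all genes 45.7% were higher, but 35.6% with totals that leave out abundant genes. The 10 ratios had a median of 0.56 on the log2 scale, and all measured genes had a median of 0.01. A ratio above 1 was seen for 7 of the 10 ETS genes, and for 50.3% of all measured genes. With the limit at 1.5-fold, Etv4, Ets1, Ets2 and Erf were called higher (4 of 10, background 15.7%) and Elk1 lower (1 of 10, background 15.6%). The genes were chosen with earlier results of these data known, so these counts describe the genes and are not a test.

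**Figure D1:**
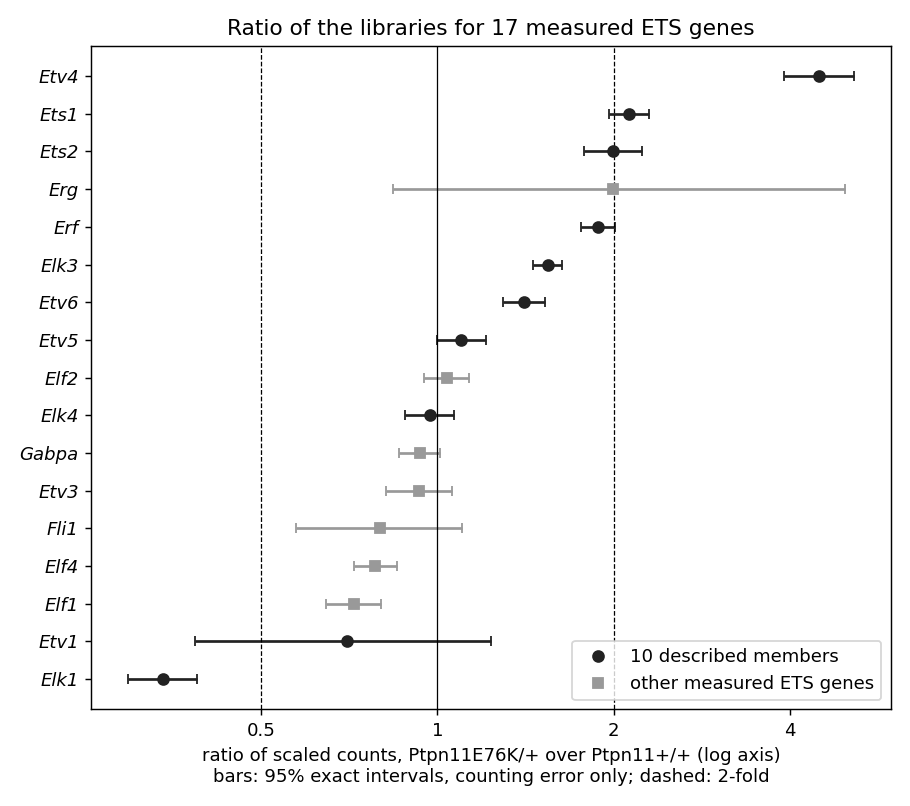
Ratio of scaled counts, the Ptpn11E76K/+ library over the Ptpn11+/+ library (log axis), with 95% exact counting intervals, for the 10 ETS genes described (black circles) and the 7 other measured ETS genes (grey squares). Etv4 and Elk1 are the genes whose whole interval lies beyond the dashed 2-fold lines, and 5 of the 7 other genes lie between ratios of 0.72 and 0.93.

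Unbroken identical stretches between transcripts of the 10 genes were short. Likeness of sequence that allows for mismatches was not measured. Over the 45 pairs of the 10 genes, the longest stretch of identical sequence between any GENCODE M21 transcripts of both genes was 23 bases, with a median of 15 over pairs. The stretches of the PEA3 group are given because its members are the closest relatives whose ratios are set against each other here. Capitals mark bases that are identical in both transcripts.
Etv4 and Etv5: GGCATCATGCAGAAGGTGGCTGG
Etv1 and Etv5: TACAAATTTGTGTGTGACCCGGA
Etv1 and Etv4: TGATGAGCAGTTTGTTCC

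Etv4, a PEA3 group activator, had the highest ratio of the 10. This gene (ENSMUSG00000017724) had 905 counts in the Ptpn11E76K/+ library and 269 in the Ptpn11+/+ library. Its level per transcript length was 21.7 CPM per kilobase (95% Poisson interval 20.3 to 23.2) in the Ptpn11E76K/+ library and 4.86 (4.29 to 5.47) in the Ptpn11+/+ library. The intervals are far apart, and the ratio was 4.48 (3.90 to 5.15), rank 327 of the 13142 measured genes from the highest. On its own chromosome, 11, Etv4 ranked 32 of 1074 measured genes. No annotated gene overlaps Etv4, Etv5 or Etv1 in GENCODE M21.

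Etv5, also of the PEA3 group, was not called. Etv5 (ENSMUSG00000013089, chromosome 16) had 770 counts in the Ptpn11E76K/+ library and 932 in the Ptpn11+/+ library, a ratio of 1.10 (0.998 to 1.21). Its levels per length were 11.1 and 10.1 CPM per kilobase in the Ptpn11E76K/+ and Ptpn11+/+ libraries, with overlapping intervals. Etv1 (ENSMUSG00000004151, chromosome 12) was scarce, with 20 counts in the Ptpn11E76K/+ library and 38 in the Ptpn11+/+ library, and its ratio of 0.70 had an interval (0.39 to 1.23) too wide to give a direction at this depth. Counts of Etv4 per count of Etv5 were 1.18 in the Ptpn11E76K/+ library and 0.289 in the Ptpn11+/+ library. That ratio of ratios, which does not depend on library scaling, was 4.07 (3.44 to 4.83).

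The make-up of the PEA3 group therefore differed between the libraries. Etv4 held 53.4% of the group's counts (95% Clopper-Pearson interval 51.0 to 55.8) in the Ptpn11E76K/+ library and 21.7% (19.4 to 24.1) in the Ptpn11+/+ library. Etv5 held 45.4% in the Ptpn11E76K/+ library and 75.2% in the Ptpn11+/+ library. Per kilobase of transcript, Etv4 made up 65.8% of the group's level in the Ptpn11E76K/+ library and 31.9% in the Ptpn11+/+ library. Summed over its 3 genes, the group had 1.82 times the scaled counts in the Ptpn11E76K/+ library (1.69 to 1.96).

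**Figure D2:**
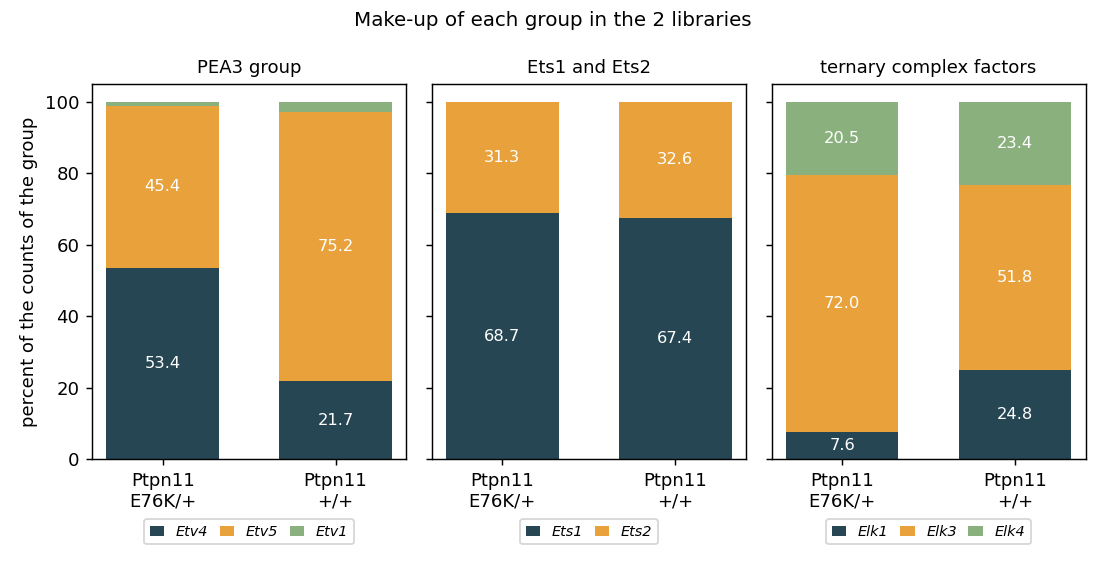
Percent of each group's counts (vertical axis) held by its genes in the Ptpn11E76K/+ library (left bar) and the Ptpn11+/+ library (right bar), for the PEA3 group, for Ets1 with Ets2, and for the ternary complex factors. Etv4 holds 53.4% against 21.7%, Ets1 68.7% against 67.4%, and the X-linked Elk1 7.59% against 24.8%.

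The 3 genes of the Capicua complex, which represses PEA3 group genes, were measured and none was called. Among all measured genes, 6.98% were called higher and 8.29% lower, so no call among 3 genes is near the background. Cic had 2243 counts in the Ptpn11E76K/+ library and 3184 in the Ptpn11+/+ library, a ratio of 0.94 (0.89 to 0.99), and its cofactor gene Atxn1l had a ratio of 0.75 (0.70 to 0.81). Their median log2 ratio was -0.24, but 0.17 once trends over transcript length and GC content were removed, so no direction is given. Of 10 genes for the turnover of PEA3 proteins, 1 was called higher and 1 lower, also near those shares. Cul4b, an X-linked gene (ratio 0.47), was also called lower under total-count and upper-quartile scaling and under totals that leave out abundant genes. Rbx1 (2.13), on chromosome 15, was called higher with length and GC trends removed. Relative to the medians of their chromosomes, the ratios were 1.05 for Cul4b and 1.44 for Rbx1. Trib2, which encodes a pseudokinase adaptor of the ubiquitin ligase COP1, was 2.94-fold lower, with 230 counts in the Ptpn11E76K/+ library and 899 in the Ptpn11+/+ library. Trib3, of the same family, was 3.89-fold higher (3.08 to 4.96). Cop1 itself had a ratio of 1.03 (0.96 to 1.10).

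Promoter windows from RefSeq (build GRCm38.p6, from 250 bases before to 50 after a transcript start) were found for 8 of the 10 genes, 12 windows in all; none was matched for Etv4 and Ets1. They were searched on both strands for the ETS site CCGGAAGT, the Capicua sites TGAATGAA and TGAATGGA, the AP-1 sites TGAGTCA and TGACTCA, and the CArG box of SRF. The ETS site was found in 1 window, of Elk4, and in 3.89% of all 32851 windows of the table. The Capicua, AP-1 and CArG sites were found in none of the 12 windows, and in 2.47%, 5.20% and 1.63% of all windows. Of the 12 windows, 11 end in bases found at a GENCODE M21 transcript start, and the first of the 2 Etv5 windows does not. The shorter letters TGAATG, with which both Capicua sites begin, were added after the windows had been seen. They occur 3 times in that unmatched Etv5 window, in no other of the 12 and in 12.7% of all windows. A match describes letters only and is no sign of binding. The windows below are shown because Etv5 was not called beside Etv4, Elk1 was the gene called lower, and Elk4 holds the ETS site. Capitals mark the ETS site in Elk4. The Elk1 window and the Etv5 window shown, the one that matched a transcript start, hold none of the letters searched.
Etv5, chr16:22439521-22439820, minus strand: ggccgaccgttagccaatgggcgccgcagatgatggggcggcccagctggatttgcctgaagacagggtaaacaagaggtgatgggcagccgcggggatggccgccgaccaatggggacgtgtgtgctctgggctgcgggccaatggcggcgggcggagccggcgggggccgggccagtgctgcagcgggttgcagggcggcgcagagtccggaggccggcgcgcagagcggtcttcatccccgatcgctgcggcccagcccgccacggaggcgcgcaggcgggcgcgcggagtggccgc
Elk1, chrX:20950559-20950858, minus strand: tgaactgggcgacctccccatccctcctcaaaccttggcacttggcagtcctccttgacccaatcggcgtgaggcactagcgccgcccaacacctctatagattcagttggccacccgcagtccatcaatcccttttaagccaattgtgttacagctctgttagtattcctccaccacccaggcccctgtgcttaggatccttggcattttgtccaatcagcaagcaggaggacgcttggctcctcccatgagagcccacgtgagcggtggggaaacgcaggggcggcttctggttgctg
Elk4, chr1:132007370-132007669, plus strand: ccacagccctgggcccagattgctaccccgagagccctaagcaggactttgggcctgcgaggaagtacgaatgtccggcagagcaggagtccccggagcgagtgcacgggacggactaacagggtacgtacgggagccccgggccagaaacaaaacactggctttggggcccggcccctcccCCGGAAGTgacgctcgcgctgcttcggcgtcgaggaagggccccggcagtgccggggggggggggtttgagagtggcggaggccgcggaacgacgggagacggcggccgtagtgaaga

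Ets1 and Ets2, activators that ERK phosphorylates, had similar ratios near the limit. Ets1 (ENSMUSG00000032035, chromosome 9) had 1657 counts in the Ptpn11E76K/+ library and 1039 in the Ptpn11+/+ library, a ratio of 2.12 (1.96 to 2.29), and just missed the call. It was called with length and GC trends removed (2.41) and with ratios centred on each chromosome's median (2.27). Ets2 (ENSMUSG00000022895, chromosome 16) had 755 counts in the Ptpn11E76K/+ library and 503 in the Ptpn11+/+ library, a ratio of 1.997 (1.78 to 2.24). Per kilobase, Ets1 stood at 18.8 CPM in the Ptpn11E76K/+ library and 8.84 in the Ptpn11+/+ library, and Ets2 at 11.2 and 5.59 in the same order. For both genes the 2 libraries' intervals were apart. Counts of Ets1 per count of Ets2 were 2.19 in the Ptpn11E76K/+ library and 2.07 in the Ptpn11+/+ library, and the ratio of ratios of 1.06 (0.92 to 1.22) does not set the genes apart.

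Ets1 is also abundant in lymphocytes and endothelial cells, so their markers were read beside it. Of 10 lymphocyte markers none was measured, and they summed to 16 counts in the Ptpn11E76K/+ library and 8 in the Ptpn11+/+ library. Endothelial markers without Eng, a gene that MSPC express themselves, summed to 37 counts in the Ptpn11E76K/+ library and 29 in the Ptpn11+/+ library over 10 genes. Of these 10, 4 were at 0 counts in the Ptpn11E76K/+ library and 5 in the Ptpn11+/+ library. Kdr had 14 counts in the Ptpn11E76K/+ library and 0 in the Ptpn11+/+ library, Egfl7 had 9 and 4, Vwf had 8 and 14, and Pecam1 had 2 and 5. The part of such cells in the Ets1 value was not tested. Of the ETS genes typical of blood and endothelial cells, Fli1 had 63 counts in the Ptpn11E76K/+ library and 105 in the Ptpn11+/+ library, Erg had 15 and 10, and the myeloid factor gene Spi1 had 4 and 1. In bulk RNA, fewer cells of a type and less RNA per cell cannot be told apart.

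Elk1, the ternary complex factor best known as an ERK substrate, was the ETS gene called lower. Elk1 (ENSMUSG00000009406, chromosome X) had 266 counts in the Ptpn11E76K/+ library and 1041 in the Ptpn11+/+ library, and was 2.94-fold lower (2.57 to 3.38). Its level was 4.31 CPM per kilobase in the Ptpn11E76K/+ library and 12.7 in the Ptpn11+/+ library. It lay inside the middle range of its chromosome: of the 431 measured X-linked genes, 130 (30.2%) had a log2 ratio as low as or below its -1.55, and the quartiles were -1.74 and -0.58. Centred on the X median, its ratio was 0.75 (0.66 to 0.86) and it was not called. Elf4, the other measured X-linked ETS gene, had a ratio of 0.78 (0.72 to 0.85). Xist, the X-linked RNA of X inactivation, had 9051 counts in the Ptpn11E76K/+ library and 21878 in the Ptpn11+/+ library. Elk1 overlaps Uxt on the same strand, and Uxt had 138 and 276 counts in the Ptpn11E76K/+ and Ptpn11+/+ libraries, a ratio of 0.67 (0.54 to 0.82). What part the chromosome-wide difference has in the Elk1 value was not tested.

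**Figure D3:**
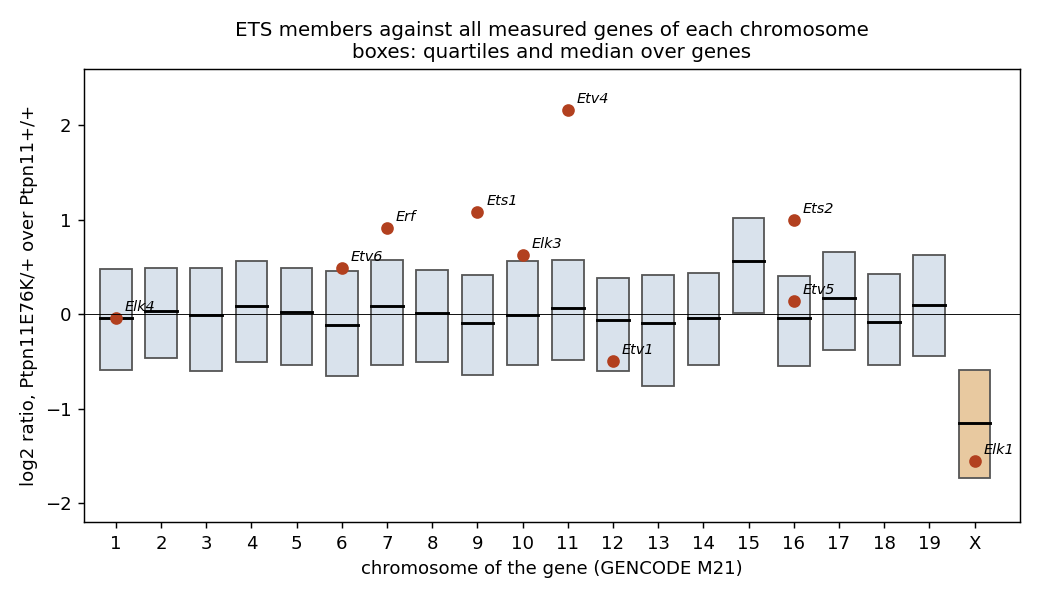
Log2 ratio of the Ptpn11E76K/+ library over the Ptpn11+/+ library (vertical axis) by chromosome (horizontal axis), with boxes for the quartiles and black lines for the median over all measured genes of a chromosome, and red points for the 10 ETS genes. Elk1 (-1.55) lies inside the box of X (median -1.15), whereas Etv4 (2.16) lies far above that of chromosome 11 (median 0.07).

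Elk3 and Elk4, the autosomal ternary complex factors, were not called. Elk3, which can act as a repressor until ERK phosphorylates it (ENSMUSG00000008398, chromosome 10), had 2522 counts in the Ptpn11E76K/+ library and 2174 in the Ptpn11+/+ library, a ratio of 1.54 (1.46 to 1.63). Elk4 (ENSMUSG00000026436, chromosome 1) had 717 counts in the Ptpn11E76K/+ library and 983 in the Ptpn11+/+ library, a ratio of 0.97 (0.88 to 1.07), which was 1.05 with length and GC trends removed. Elk1 made up 7.59% of the counts of the 3 factors (6.73 to 8.52) in the Ptpn11E76K/+ library and 24.8% (23.5 to 26.1) in the Ptpn11+/+ library, while Elk3 made up 72.0% and 51.8% in the same order. Their summed scaled counts had a ratio of 1.11 (1.06 to 1.16), so the factors differed in make-up more than in sum. Elk1 is X-linked, and the part of the X-wide difference in these shares and this sum was not tested. Between the autosomal Elk3 and Elk4 alone, the ratio of ratios was 1.59 (1.42 to 1.78). Elk3 and Elk4 overlap genes on the opposite strand, Cdk17 (ratio 1.42) and Mfsd4a (ratio 0.80), and no source used here states whether counting used strand.

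The repressor genes Erf and Etv6 were not called. Erf (ENSMUSG00000040857, chromosome 7) had 2152 counts in the Ptpn11E76K/+ library and 1524 in the Ptpn11+/+ library, a ratio of 1.88 (1.76 to 2.01), and no annotated gene overlaps it. Etv6 (ENSMUSG00000030199, chromosome 6) had 1208 counts in the Ptpn11E76K/+ library and 1144 in the Ptpn11+/+ library, a ratio of 1.40 (1.29 to 1.52). Of 5 gene models that overlap Etv6, 2 are on its strand. The list of corepressors of Etv6, Erf and the Elk factors had 12 measured genes and none was called. With 6.98% of all measured genes called higher and 8.29% lower, no call among 12 is near the background. The highest ratio in this list was that of Ctbp2, 2.12 (1.91 to 2.34). Etv3, the closest relative of Erf, had 395 counts in the Ptpn11E76K/+ library and 565 in the Ptpn11+/+ library, a ratio of 0.93 (0.82 to 1.06).

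Ordered by level per kilobase of the longest transcript, the Ptpn11E76K/+ library ran from Erf (35.3 CPM per kilobase) and Elk3 (34.4), whose intervals overlap, through Etv4 and Ets1, to Elk1 (4.31) and Etv1 (0.175). Etv6, Ets2 and Etv5 followed Ets1 with intervals that overlapped from each to the next. The Ptpn11+/+ library ran from Elk3 (22.3), Erf (18.8) and Elk1 (12.7) to Ets2 (5.59), Etv4 (4.86) and Etv1 (0.25). There, Etv5, Elk4, Ets1 and Etv6 followed each other with overlapping intervals, as did Ets2 and Etv4. Etv4 thus ranked 3 of 10 in the Ptpn11E76K/+ library and 9 of 10 in the Ptpn11+/+ library, and Elk1 ranked 9 and 3. Levels and ranks depend on the transcript length used. With the mean length of coding transcripts Etv4 ranked 4 and 9, and Elk1 ranked 9 and 6, in the Ptpn11E76K/+ and Ptpn11+/+ libraries. By that length Elk3 stood at 69.1 and Erf at 59.0 CPM per kilobase in the Ptpn11E76K/+ library. In ratios between libraries the transcript length cancels, but removal of trends over length and GC content moved them, for Ets1 from 2.12 to 2.41.

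**Figure D4:**
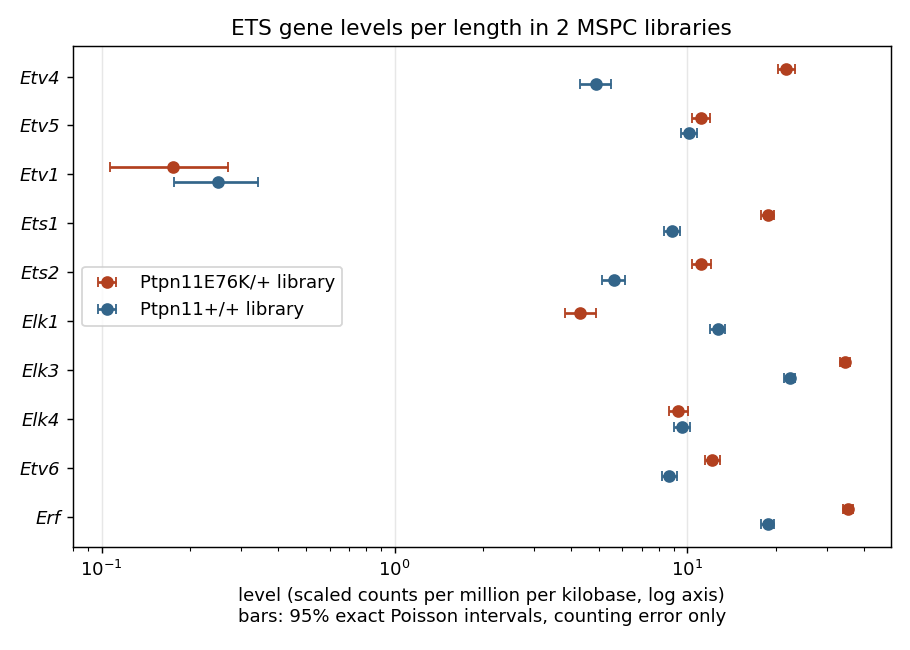
Level of each of the 10 ETS genes in scaled CPM per kilobase (log axis), with 95% exact Poisson intervals, in the Ptpn11E76K/+ library (upper point of each gene) and the Ptpn11+/+ library (lower point). Etv4 (21.7 against 4.86) and Elk1 (4.31 against 12.7) lie farthest apart, while Elk4 (9.30 against 9.59) and Etv1 (0.175 against 0.25) overlap.

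The rest of the family gave no call. Of 17 further ETS genes listed, 16 were in the table, 7 were measured and 0 were called. With 6.98% of all measured genes called higher and 8.29% lower, 0 of 7 is near the background. The 7 genes had a median log2 ratio of -0.10, which became 0.16 with length and GC trends removed. Gabpa, a factor for housekeeping and mitochondrial genes, had 1054 counts in the Ptpn11E76K/+ library and 1504 in the Ptpn11+/+ library, a ratio of 0.93 (0.86 to 1.01). The ratio was 0.72 (0.65 to 0.80) for Elf1 and 1.04 (0.95 to 1.13) for Elf2. Fev, Etv2, Elf3, Elf5 and Spic had 0 counts in both libraries. The limit set for a count of 0, which is 3 counts, equals 0.173 CPM in the Ptpn11E76K/+ library and 0.13 CPM in the Ptpn11+/+ library.

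Of 13 measured partners and coactivators of the ETS proteins 0 were called, where 6.98% of all measured genes were called higher and 8.29% lower. Id3, an inhibitor of DNA binding, was the most abundant, with 5169 counts in the Ptpn11E76K/+ library and 8199 in the Ptpn11+/+ library (ratio 0.84). Srf had 2223 counts in the Ptpn11E76K/+ library and 2000 in the Ptpn11+/+ library, a ratio of 1.48 (1.39 to 1.57). Of 15 kinases and phosphatases that act on ETS factors or on ERK, 1 was called, also near those shares. It was Dusp5, which encodes a nuclear ERK phosphatase, with 1206 counts in the Ptpn11E76K/+ library and 129 in the Ptpn11+/+ library, a ratio of 12.4 (10.4 to 15.03). Of 7 AP-1 partner genes, Fosl1 and Jun were called higher and 0 lower. Fosl1 had 2982 counts in the Ptpn11E76K/+ library and 505 in the Ptpn11+/+ library, a ratio of 7.85 (7.15 to 8.65), and Jun, at 2.13 (2.004 to 2.27), was not called under total-count or upper-quartile scaling, under totals that leave out abundant genes, with length and GC trends removed, with chromosome centring, with a 99% interval or beyond 3-fold.

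Genes that usually vary with the PEA3 group under FGF and ERK signalling had a median log2 ratio of 0.79. But of the 11 measured, 0 were called higher and 1 lower, near the shares of all measured genes (6.98% and 8.29%). The feedback inhibitor gene Spry1 had 229 counts in the Ptpn11E76K/+ library and 1029 in the Ptpn11+/+ library, a ratio of 0.30 (0.26 to 0.34). Its relative Spry2 had a ratio of 1.73 (1.52 to 1.97). The ERK phosphatase genes Dusp4 and Dusp6 had ratios of 2.27 (1.95 to 2.65) and 1.96 (1.75 to 2.20). With the limit at 1.5-fold, 6 of the 11 were called higher (background 15.7%) and 2 lower (background 15.6%). The 2 were Spry1 and Cbl, at 0.48 (0.42 to 0.54). Under totals that leave out abundant genes, Cbl was also called lower at the 2-fold limit.

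Known target genes of the ETS proteins' partners are given as counts. Of 12 measured immediate early SRF targets of the ternary complex type, 4 were called higher and 0 lower (median 0.89). Among all measured genes the shares called were 6.98% higher and 8.29% lower. Ier2 had 1093 counts in the Ptpn11E76K/+ library and 509 in the Ptpn11+/+ library, Ier3 had 2648 and 1252, Arc had 416 and 106, and Nr4a1 had 236 and 42. Arc and Nr4a1 lie on chromosome 15, whose median log2 ratio was 0.56, and relative to it their log2 ratios were 1.82 and 2.32. Egr1 and Fos, the classical targets, had ratios of 1.16 (1.11 to 1.22) and 0.56 (0.47 to 0.66) and were not called. Of 15 SRF targets of the MRTF type, mostly actin cytoskeleton genes, Tagln (3.73) and Cnn1 (2.50) were called higher and 0 lower (median 0.38). Zyx (0.50) was called lower under total-count scaling, under totals that leave out abundant genes, and with length and GC trends removed.

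Of 11 measured matrix turnover genes with known ETS and AP-1 sites, 4 were called higher and 0 lower (median 0.72). Among all measured genes, 6.98% were called higher and 8.29% lower. Plaur, the urokinase receptor gene, had 5580 counts in the Ptpn11E76K/+ library and 1751 in the Ptpn11+/+ library, a ratio of 4.24 (4.02 to 4.48). The collagenase gene Mmp13 had 192 and 55 counts in the same order (ratio 4.64), and the stromelysin gene Mmp3 had 937 and 442 (ratio 2.82). Mmp2 had a ratio of 0.74 (0.71 to 0.77). Haematopoietic and myeloid markers were higher beside these targets: 11 of 15 were measured and 9 were called higher (Lyz2, Ctss, C1qa, Mpeg1, Itgam, Itgb2, Lcp1, Laptm5 and Tyrobp). Lyz2 had 276 counts in the Ptpn11E76K/+ library and 11 in the Ptpn11+/+ library. The other 8 had 5 or fewer counts in the Ptpn11+/+ library and passed the minimum through the Ptpn11E76K/+ library. The pan-leukocyte marker Ptprc had 12 counts in the Ptpn11E76K/+ library and 1 in the Ptpn11+/+ library. The part of these cells in the values of the targets was not tested.

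**Figure D5:**
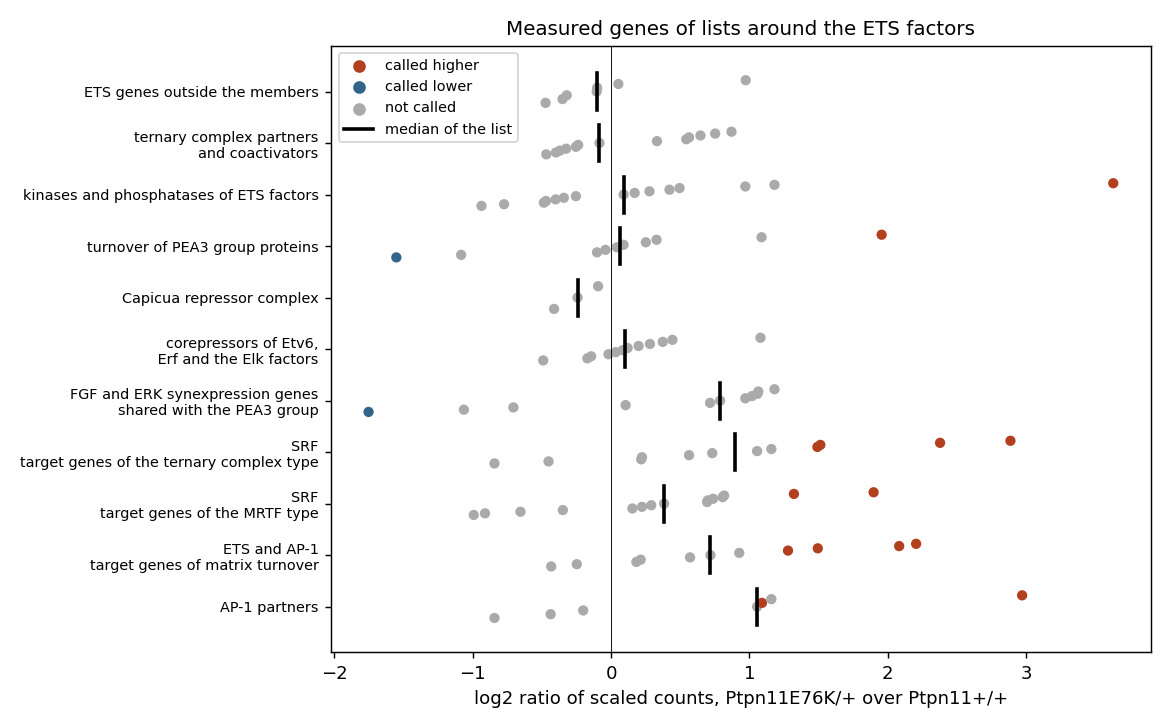
Log2 ratio of the Ptpn11E76K/+ library over the Ptpn11+/+ library (horizontal axis) for each measured gene of 11 lists around the ETS factors, with genes called higher in red, called lower in blue and not called in grey, and a black bar at the list's median. The SRF targets of the ternary complex type (median 0.89) and the matrix turnover targets (median 0.72) each hold 4 red points. The Capicua complex and the other ETS genes hold none. Among all measured genes, 6.98% were called higher and 8.29% lower.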

How the data were processed

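The deposited values are raw counts per Ensembl gene, whole and not normalized, for 1 library per genotype. The submitters' processing notes list CASAVA, TopHat, edgeR and mouse build mm9 with no version. The read counter, its annotation release and its strand setting were not given in the sources used here. Symbols came from the supplied gene name table (34490 of 35275 gene models matched), and transcript lengths, GC content, chromosomes and overlaps from GENCODE M21, which is on another build, so its coordinates are not printed.

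Library totals were scaled with TMM factors of edgeR 4.0.16 (0.965 for Ptpn11E76K/+ and 1.036 for Ptpn11+/+). Intervals of ratios are 95% exact (Clopper-Pearson) on how a gene's counts divide between the libraries (SciPy 1.17.1). Log2 ratios used a prior count of 0.5 per library. Levels of 0 counts were bounded at 3 counts. No count model was fitted and no p-value computed, since there is 1 library per genotype. The steps were tested on simulated Poisson counts with no variation between animals. That checks the computation only and says nothing on differences between genotypes. Named genes were the members, the measured ETS genes, the called genes of each list (or its most abundant gene) and Ptpn11; other genes of these lists, Xist and the overlapping genes were named after their values were seen. Some genes of the lists are counted but not reported here by name. The members, lists and limits were chosen with earlier results of these data known. Alternatives were other scalings (among them DESeq2 1.42.0 size factors), minimums, limits, interval levels and prior counts, removal of lowess trends over length and GC content, another transcript length and, added after seeing the data, centring on chromosome medians. Likeness of pattern to other genes was not computed over 2 libraries, and protein identity was not analysed here.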

Additional observations from a re-analysis of the deposited data

How the results depend on the processing

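Etv4 was called higher under every scaling, minimum, limit and interval level tried, with ratios from 4.05 to 4.48. The number of members called higher, 1, was 2 with length and GC trends removed and 2 with chromosome centring (Ets1 was added in both), and 4 beyond 1.5-fold. The number called lower, 1, was 0 beyond 3-fold and 0 with chromosome centring, where the Elk1 ratio was 0.754. Over all genes, 917 were called higher and 1090 lower, against 2063 and 2046 beyond 1.5-fold and 378 and 464 beyond 3-fold. Of all calls, 45.7% were higher, but 35.6% with totals that leave out the 136 most abundant genes. Total counts and those reduced totals moved the median of all genes by -0.10 and -0.13 (log2). The median log2 ratio of the members lay between 0.43 and 0.70. Elk4 was below 1 under every scaling and above 1 (1.05) with length and GC trends removed, within 0.888 to 1.05. The median of the corepressor, kinase, SRF partner and PEA3 turnover lists changed sign with scaling or trend removal. Levels per kilobase moved beyond their intervals with the mean coding transcript length for 8 members, all but Etv4 and Elk1. No paired analysis was possible because each genotype has 1 library, and for the same reason no library could be left out. Etv1, at 20 and 38 counts, is limited by depth.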
